A study of Homo sapiens with 62 samples.

Results

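The genes described here are 10 targets of NF-kB signalling through the receptor CD40 and its viral mimic: TRAF1, BIRC3, TNFAIP3, CFLAR, FSCN1, MARCKS, TNFAIP8, CD83, TNIP1 and TRAF3. They were found by gene symbol among the 55040 rows of each deposited expression table, and each had a single row in all 20 tables. GM12878 is a human B-lymphoblastoid line, made by transforming B cells with Epstein-Barr virus. Polyadenylated RNA was copied and amplified with the SMARTer kit for very small inputs, and libraries were made by Nextera tagmentation. The 20 libraries are splits of GM12878 pools; the series describes pools of 10 cells, each divided into 10 parts that were processed like single cells to measure technical variation. No treatment, genotype or time separates them. In 10 of them, called numbered splits, the labels count the splits from 1 to 10. The other 10, called unnumbered splits, are named here by a library number in their label (232, 233 and 246 to 253). For 9 of these, all but split 247, the labels warn that the record's description may be out of date. The labels do not say whether each set came from a single pool, so p-values measure the spread between splits, which may be technical. The other 42 samples of the series were not analysed here.

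CD40 is a receptor of the TNF-receptor family on B cells. When its ligand binds, its tail recruits TRAF adaptors and ubiquitin ligases, which switch on the IkB kinases and, through the kinase NIK, the alternative NF-kB pathway. The Epstein-Barr virus protein LMP1 gathers the same adaptors without a ligand, so that NF-kB runs continuously in transformed B cells. Its targets include adaptors and inhibitors of the pathway itself, inhibitors of cell death, and surface and cytoskeletal proteins of activated B cells.

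RefSeq promoter windows (GRCh38.p14, 250 bases before to 50 after each annotated start) were found for 9 of the 10 genes, FSCN1 being the exception. The upstream 250 bases are printed for CD83, TNFAIP3 and TNIP1, which had the lowest unadjusted p-values between the sets, and for BIRC3, which carries a pair of separate matches. Sequences run 5′ to 3′ towards the start, and capitals mark matches to the kB consensus, the DNA motif read by NF-kB dimers, on either strand.
CD83 (chr6:14117522-14117771, plus strand): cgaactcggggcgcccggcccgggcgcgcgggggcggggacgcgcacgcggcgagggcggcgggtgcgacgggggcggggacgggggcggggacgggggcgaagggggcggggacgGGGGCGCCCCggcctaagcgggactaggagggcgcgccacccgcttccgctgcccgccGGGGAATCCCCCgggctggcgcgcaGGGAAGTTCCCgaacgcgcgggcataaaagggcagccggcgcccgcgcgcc
TNFAIP3 (chr6:137867009-137867258, plus strand): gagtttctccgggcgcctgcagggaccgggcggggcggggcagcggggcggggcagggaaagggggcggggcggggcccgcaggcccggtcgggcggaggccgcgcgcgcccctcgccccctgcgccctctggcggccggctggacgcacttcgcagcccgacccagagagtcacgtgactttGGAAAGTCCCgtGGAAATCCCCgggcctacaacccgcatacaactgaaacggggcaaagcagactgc
TNIP1 (chr5:151081035-151081284, minus strand): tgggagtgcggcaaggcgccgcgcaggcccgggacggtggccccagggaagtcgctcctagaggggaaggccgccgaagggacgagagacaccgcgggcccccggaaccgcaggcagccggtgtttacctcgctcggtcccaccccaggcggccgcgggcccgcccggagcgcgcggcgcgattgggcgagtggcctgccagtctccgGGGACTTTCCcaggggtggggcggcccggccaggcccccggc
BIRC3 (chr11:102317234-102317483, plus strand): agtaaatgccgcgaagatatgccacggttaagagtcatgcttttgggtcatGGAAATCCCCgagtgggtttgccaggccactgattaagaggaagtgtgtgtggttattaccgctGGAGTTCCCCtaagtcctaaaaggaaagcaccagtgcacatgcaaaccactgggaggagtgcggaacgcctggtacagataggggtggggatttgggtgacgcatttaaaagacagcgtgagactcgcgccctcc
In BIRC3 the matches GGAAATCCCC and GGAGTTCCCC began 199 and 135 bases upstream of the start, and in TNFAIP3 GGAAAGTCCC and GGAAATCCCC began 67 and 55 bases upstream. CD83 had 6 matches, of which 5 overlap each other in 2 clusters, the nearer one 51 bases upstream. Its other annotated window had none. TNIP1 had GGGACTTTCC at 42 bases, TRAF3 GGGGATTTCC at 33 and CFLAR GGGGAATTCC at 97. No match lay in the windows of TRAF1, MARCKS or TNFAIP8. In all, 6 of these 9 genes had a match in a window, against 13.3% of 27305 gene symbols with the same windows, and 33.3% of the members' 18 windows had one against 11.3% of 35116. A match describes the letters only.

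Values are FPKM, fragments per kilobase of transcript, scaled to each library's mapped total. For some genes, the fragment numbers implied by the confidence bounds did not follow FPKM from split to split. TRAF3 had 0.506 FPKM on about 2188 fragments in unnumbered split 250, and 99.7 on about 362 in numbered split 2. Estimated depth was 32.3 and 20.6 M fragments (M, mega) in these splits, so the length that FPKM divides by may differ between them. This was not tested. Levels, spread and counts at 1 FPKM below describe FPKM and not numbers of fragments. Loci below are given as in the deposited tables, whose build the sources used here do not state. Estimated depth was 11.8 to 20.6 M fragments (M, mega) in the numbered splits. It was 23.3 to 38.7 M in 8 unnumbered splits, but 7.79 M in split 252 and 0.128 M in split 247, where 1 fragment per kilobase is worth 7.83 FPKM. The number of genes at 1 FPKM or more was 5357 ± 1085 (SD, n = 10) in numbered and 4328 ± 533 (SD, n = 10) in unnumbered splits. The B cell marker MS4A1 was at 1 FPKM or more in 20 of 20 splits. It averaged 716 ± 209 FPKM (SD, n = 10) in numbered and 258 ± 155 (SD, n = 10) in unnumbered splits (limma adjusted p = 0.00401). CD79A was also higher in the numbered splits (limma adjusted p = 0.00274). CD79B, CD22, PAX5 and CR2 did not pass, with differences of 2.74, 0.54, -0.05 and 1.22 in log2(FPKM + 1), numbered minus unnumbered. Among markers of other cell types, CD3D of T cells and CD14 and CD68 of monocytes were listed at 0 in all 20 splits. CSF1R, also a monocyte marker, was at 1 FPKM or more in 10 numbered and 8 unnumbered splits, at up to 53.8 and 1.65 FPKM. Summed T cell markers reached 53.4 FPKM in a numbered split and 5.61 in an unnumbered one, and NK cell markers 92.2 and 243, from NKG7. Consecutive experiment numbers in the labels group the libraries into runs that do not cross the sets. Numbered splits 5, 6, 7 and 8 form run a and the remaining numbered ones run b. Unnumbered splits 232 and 233 form run c, and the 8 from 246 to 253 form run d. Run and set therefore cannot be fully told apart. Each split is part of a pool and holds few molecules. A lower level in the pool and a loss of molecules in a split cannot be told apart either.

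Between numbered and unnumbered splits, CD83 was the only one of the 10 genes that passed the limma test on log2(FPKM + 1), with Benjamini-Hochberg adjustment over all 10506 rows of mean FPKM 1 or more, at 0.05. This is 1 of 10, beside a background of 5.31% of rows in either direction (3.93% higher in numbered splits and 1.38% higher in unnumbered splits). All differences below are numbered minus unnumbered on this scale, which understates the change of low genes. The members' differences had a median of 1.76, with 8 of 10 above 0, against 0.35 for all rows tested, of which 6297 were above 0. Rescaling to TPM gave a median of 1.48 for the members and 0.24 for all rows, and moved the calls over all rows from 413 higher and 145 lower to 345 higher and 217 lower. Median size factors gave 1.52 and 0.23, with 309 higher and 194 lower. The call for CD83 was not common to all library choices: without run a its adjusted p was 0.102, and with run a as a covariate 0.0541. The difference itself was 4.2 in both fits, against 4.25 with all splits. Leaving out numbered split 1 (adjusted p = 0.0499) or unnumbered split 252 (adjusted p = 0.0350) brought TNFAIP3 past the threshold, and leaving out unnumbered split 253 brought TNIP1 past it (adjusted p = 0.0325).

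**Figure D1:**
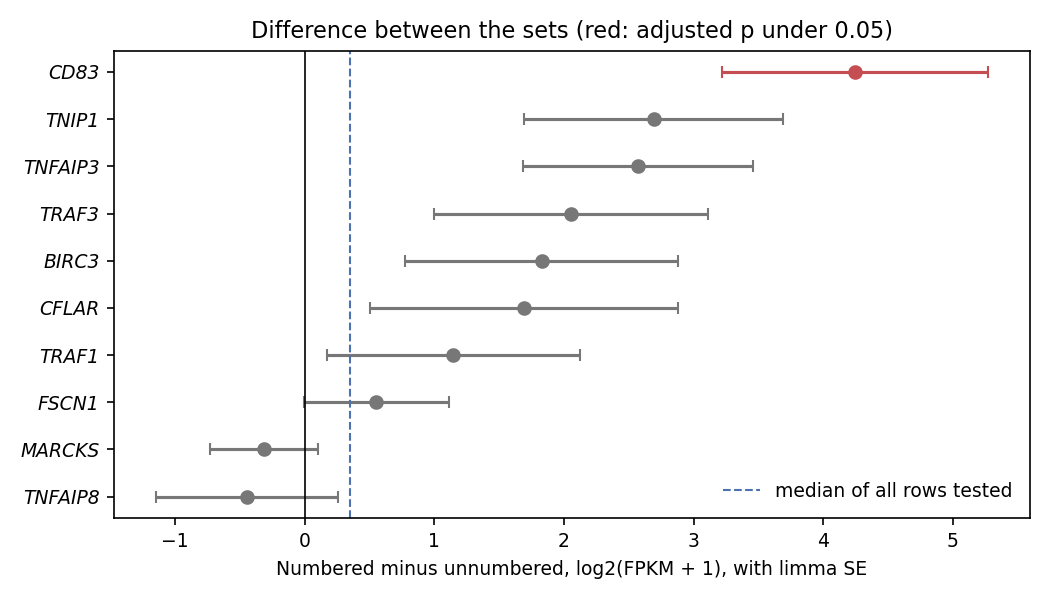
Difference in mean log2(FPKM + 1) between the 10 numbered and 10 unnumbered splits for each of the 10 genes, with bars of 1 standard error from limma and red for an adjusted p under 0.05. The dashed line is the median of all 10506 rows tested. CD83 lies at 4.25, and MARCKS and TNFAIP8 lie below 0.

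The pathway's adaptors came first. TRAF1 and TRAF3 bind the tails of CD40 and LMP1, and TRAF3 with the cIAP ligases keeps the kinase NIK low until the receptor is engaged. TRAF1 (ENSG00000056558.6, chromosome 9, 123664671 to 123691451) had a lowest, median and highest FPKM of 0.254, 20.2 and 118 in numbered splits. In unnumbered splits it had 0.00986, 7.81 and 66.7. The highest numbered value was in split 5 and the lowest in split 3, and the sets overlapped over most of their range. Its difference of 1.15 ± 0.97 (SE, limma adjusted p = 0.595) did not pass. Within the numbered splits, run a had a median of 50.3 FPKM and run b 12.3. TRAF3 (ENSG00000131323.10, chromosome 14, 103243813 to 103377837) ran from 0.105 to 144 FPKM in numbered splits, with a median of 12.1. It ran from 0.00751 to 63.5 in unnumbered splits, with a median of 0.918. High unnumbered FPKM came from run c, at 63.5 and 11.5, while run d stayed at 3.23 or below. Fragments implied by the confidence bounds were about 2749 and 600 in run c, and about 2188 in split 250 of run d (0.506 FPKM). The next highest in run d was about 147, in split 248. Among numbered splits, the 21.4 FPKM of split 9 rests on about 42178 fragments and the 1.11 of split 7 on about 2097. The higher 99.7, 144 and 97.2 FPKM of splits 2, 4 and 5 rest on about 362, 1284 and 487. The difference of TRAF3 was 2.05 ± 1.06 (SE, limma adjusted p = 0.338).

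BIRC3, which encodes the ubiquitin ligase cIAP2, is recruited by TRAFs and is itself induced by NF-kB. It was found in every numbered split (ENSG00000023445.8, chromosome 11, 102188215 to 102210134), at 10.3, 92.3 and 312 FPKM as the lowest, median and highest value. In unnumbered splits these were 0, 66.3 and 274. Splits 249 and 253 had 0.301 and 0.300 FPKM and split 247 was listed at 0, while splits 250 and 251 had 242 and 274. By the confidence bounds, the values of splits 250 and 251 rest on about 201 and 124 fragments, and the 18.9 FPKM of split 248 on about 1909. The difference of BIRC3 between sets did not pass (1.83 ± 1.05, SE, limma adjusted p = 0.411).

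TNFAIP3 encodes A20, a ubiquitin-editing enzyme that shuts off NF-kB, and TNIP1 encodes ABIN1, which binds A20. TNFAIP3 (ENSG00000118503.10, chromosome 6, 138188351 to 138204449) had 0.0605, 12.0 and 124 FPKM in numbered splits, lowest, median and highest. The highest, in split 2, rests on about 38.7 fragments, and the 41.4 FPKM of split 6 on about 3361. In unnumbered splits 6 of 10 were listed at 0, splits 252 and 233 had 20.4 and 2.24 FPKM, and the others were below 1 FPKM. Both sets overlapped at the low end, where numbered splits 1, 9 and 10 were below 1 FPKM. The difference was 2.57 ± 0.89 (SE, limma adjusted p = 0.103). The row of an overlapping gene, RP11-356I2.4, reached 42.0 FPKM in split 249. The sources used here do not state whether counting used strand. TNIP1 (ENSG00000145901.10, chromosome 5, 150409506 to 150473138) had 18.1, 56.8 and 115 FPKM in numbered splits. The 18.1 of split 9 and the 21.2 of split 5 rest on only about 16.5 and 22.2 fragments. The unnumbered splits fell into 5 from 22.1 to 251 FPKM and 5 from 0 to 0.714. Among the higher 5, the 39.7 FPKM of split 247 rests on about 2.48 fragments, and its lower confidence bound is 0. The highest value of all, in split 253, belongs to the set with the lower median, 11.4. The difference was 2.69 ± 1.0 (SE, limma adjusted p = 0.140).

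CFLAR and TNFAIP8 act on cell death. CFLAR encodes c-FLIP, which blocks caspase-8 at death receptors. It (ENSG00000003402.13, chromosome 2, 201980827 to 202029033) had 5.01, 91.5 and 326 FPKM in numbered splits and 0, 22.1 and 294 in unnumbered splits. Splits 249 and 253 were listed at 0, and 3 numbered splits had 5.01 to 6.51 FPKM. The difference was 1.69 ± 1.19 (SE, limma adjusted p = 0.503). The overlapping antisense gene CFLAR-AS1 reached 4.75 FPKM. TNFAIP8 (ENSG00000145779.6, chromosome 5, 118604387 to 118730294) was at 1 FPKM or more in 20 of 20 splits. It had 25.4, 153 and 478 FPKM in numbered splits and 4.30, 301 and 804 in unnumbered splits. The lowest of all was unnumbered split 250. The difference was -0.45 ± 0.70 (SE, limma adjusted p = 0.749), and within the numbered splits run a had a median of 94.1 FPKM and run b 272.

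CD83, a surface glycoprotein of activated B cells and dendritic cells, was higher in numbered splits. CD83 (ENSG00000112149.5, chromosome 6, 14117872 to 14137149) had 53.3, 155 and 436 FPKM in the numbered splits, with the highest in split 5 and the lowest in split 3. The unnumbered splits had 3 listed at 0, 0.0306 in split 246 and 0.110 in split 250. The other 5 held 11.9 FPKM in split 233, 41.0 in 248, 61.7 in 251, 111 in 247 and 183 in 252. The value in split 247 rests on about 32 fragments. Of the unnumbered splits, 7 lay below every numbered one, and 4 numbered splits lay above every unnumbered one, so the sets overlapped. The difference was 4.25 ± 1.03 (SE, limma adjusted p = 0.0110). Values in run a (77.2 to 436) and run b (53.3 to 260) covered a similar span. MS4A1, CD79A and the number of genes at 1 FPKM moved in the same direction between the sets, and their part in the difference was not tested.

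MARCKS, a protein kinase C substrate that links actin to the membrane, and FSCN1, the actin-bundling protein fascin, were the least variable and the lowest of the group. MARCKS (ENSG00000155130.5, chromosome 6, 114178541 to 114184648) averaged 125 ± 50.7 FPKM (SD, n = 10) in numbered splits, between 71.0 and 209. It averaged 158 ± 61.0 (SD, n = 10) in unnumbered splits, between 56.0 and 264. No split lost it, and the sets overlapped (difference -0.31 ± 0.41, SE, limma adjusted p = 0.697). FSCN1 (ENSG00000075618.12, chromosome 7, 5632439 to 5646286) reached 1 FPKM in 3 numbered splits (8.05, 6.17 and 3.88) and in unnumbered split 232 (9.18), and the other 16 were below 1 FPKM. Its mean was 1.89 FPKM in numbered and 0.947 in unnumbered splits, so that it met the filter through the numbered set, and its difference was 0.55 ± 0.56 (SE, limma adjusted p = 0.605).

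**Figure D2:**
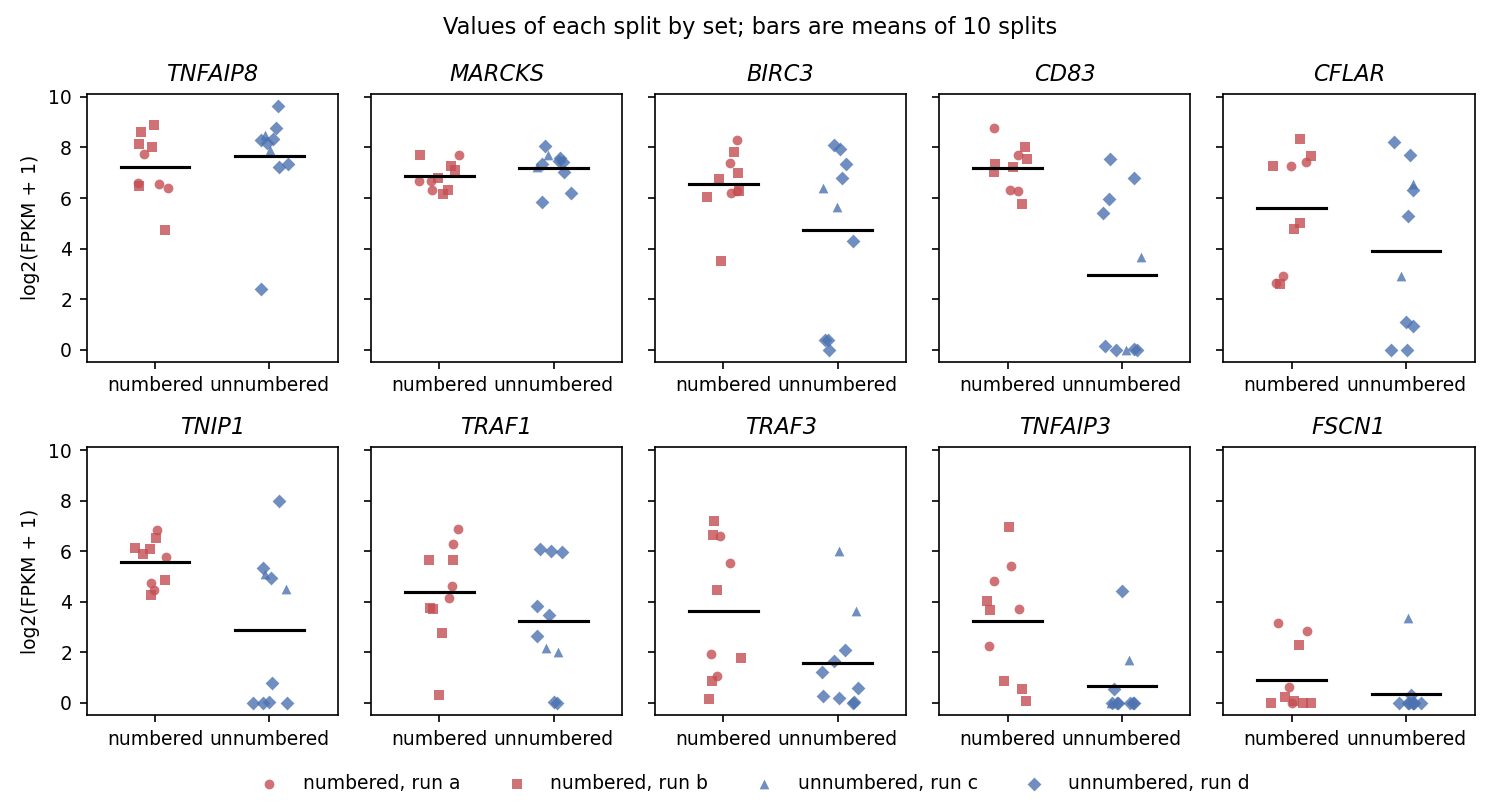
log2(FPKM + 1) of each gene in every split, with a point per split (shape and colour by set and run) and a bar at the mean of the 10 splits of a set. CD83 runs from 53.3 to 436 FPKM in numbered splits and from 0 to 183 in unnumbered splits, while MARCKS stays between 56.0 and 264 in all 20.

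The order of levels by median FPKM differed between the sets. In numbered splits it was CD83 (155), TNFAIP8 (153), MARCKS (106), BIRC3 (92.3), CFLAR (91.5), TNIP1 (56.8), TRAF1 (20.2), TRAF3 (12.1), TNFAIP3 (12.0) and FSCN1 (0.113). In unnumbered splits TNFAIP8 (301) and MARCKS (165) led, followed by BIRC3 (66.3), CFLAR (22.1), TNIP1 (11.4), TRAF1 (7.81), CD83 (5.99) and TRAF3 (0.918). TNFAIP3 and FSCN1 had medians of 0 there. Within each set, the ranges of neighbours in this order overlapped. The highest member of a split was TNFAIP8 in 4 numbered and 7 unnumbered splits and MARCKS in 1 and 3. CD83, CFLAR and BIRC3 led 2, 2 and 1 of the other numbered splits.

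A single split rarely had all 10 genes at 1 FPKM or more. This cut-off does not say whether a transcript was present. TRAF3 in unnumbered split 250 was below it on about 2188 fragments, and TNIP1 in split 247 above it on about 2.48. Numbered splits had 7 to 10 of the genes at 1 FPKM or more, with 10 in splits 6 and 8. Unnumbered splits had 3 to 9, with 3 in splits 249 and 253 and 9 in split 233. The means were 8.7 ± 0.949 (SD, n = 10) and 6.0 ± 1.94 (SD, n = 10), or 87 and 60 of 100 values. Over all 49115 rows kept, the mean number at 1 FPKM or more was also lower in unnumbered splits, at 5357 and 4328. Whether the members differ from that general fall was not tested. CD83 and TNIP1 were each at 1 FPKM in 10 numbered and 5 unnumbered splits, and TNFAIP3 in 7 and 2. By Fisher's exact test of these splits, 0 of 10 genes passed after adjustment over all rows, where 0.0666% of rows were called. CD83 and TNIP1 had an unadjusted exact p of 0.0325 (adjusted p = 0.749), where 4.34% of all rows were under 0.05. Limma gave an unadjusted p under 0.05 for 3 of the 10 genes, beside 16.3% of all rows. An exact rank-sum test called 2 genes, CD83 (adjusted p = 0.0220) and TNFAIP3 (adjusted p = 0.0254), beside 9.07% of all rows. The members' summed FPKM was 630 to 1412 in numbered and 352 to 1356 in unnumbered splits.

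**Figure D3:**
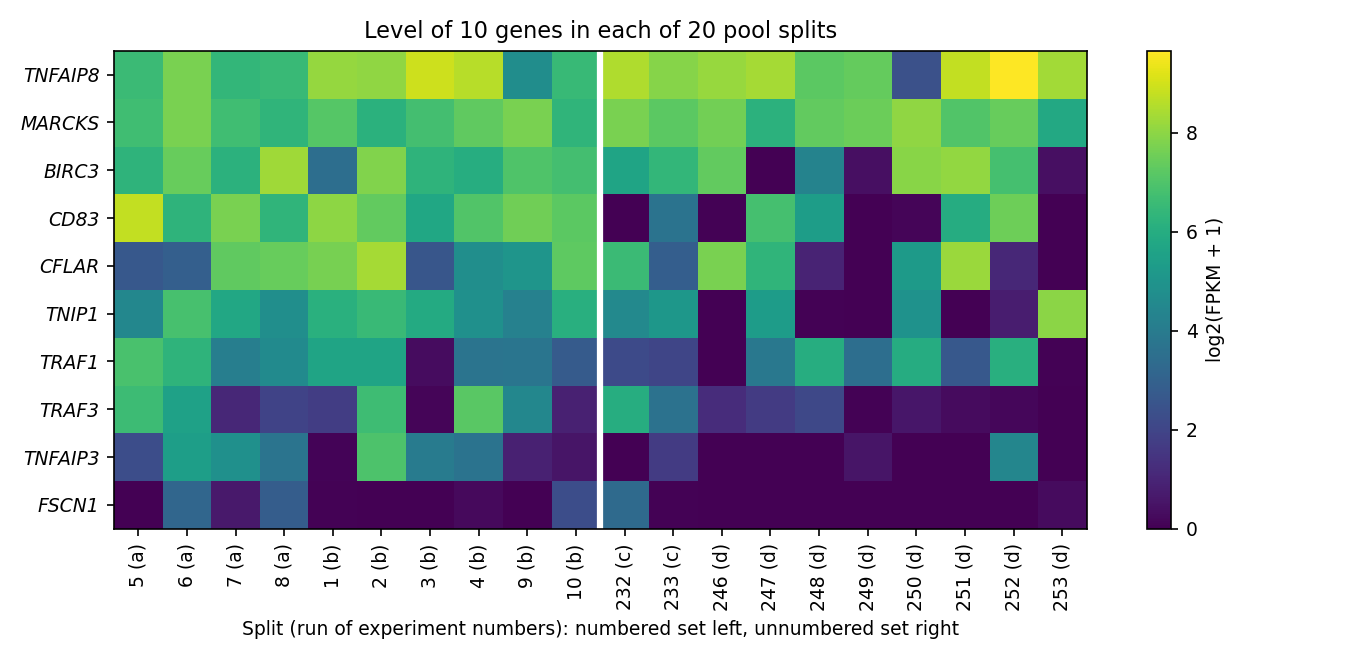
log2(FPKM + 1) of the 10 genes (rows) in the 20 splits (columns, grouped by set and run). MARCKS and TNFAIP8 are filled across all 20 columns, and unnumbered splits 249 and 253 show the most empty cells, with 3 genes each at 1 FPKM or more.

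Spread between splits differed widely between the genes. The coefficient of variation of MARCKS over the 10 splits was 0.406 for numbered splits and 0.387 for unnumbered ones, low among rows within a factor of 1.5 of its level (percentiles 6.49 and 6.48). TNFAIP8 had 0.747 and 0.692. TNIP1 went from 0.587 in numbered splits (percentile 5.75) to 2.03 in unnumbered splits (percentile 76.3), or 1.22 without split 253, a choice made after its value was seen. CD83 went from 0.645 to 1.52. TNFAIP3, FSCN1 and TRAF3 had 1.59, 1.6 and 1.28 in numbered and 2.77, 3.06 and 2.39 in unnumbered splits. In all, 13 of the 20 coefficients lay below the 50th percentile of rows of like level.

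**Figure D4:**
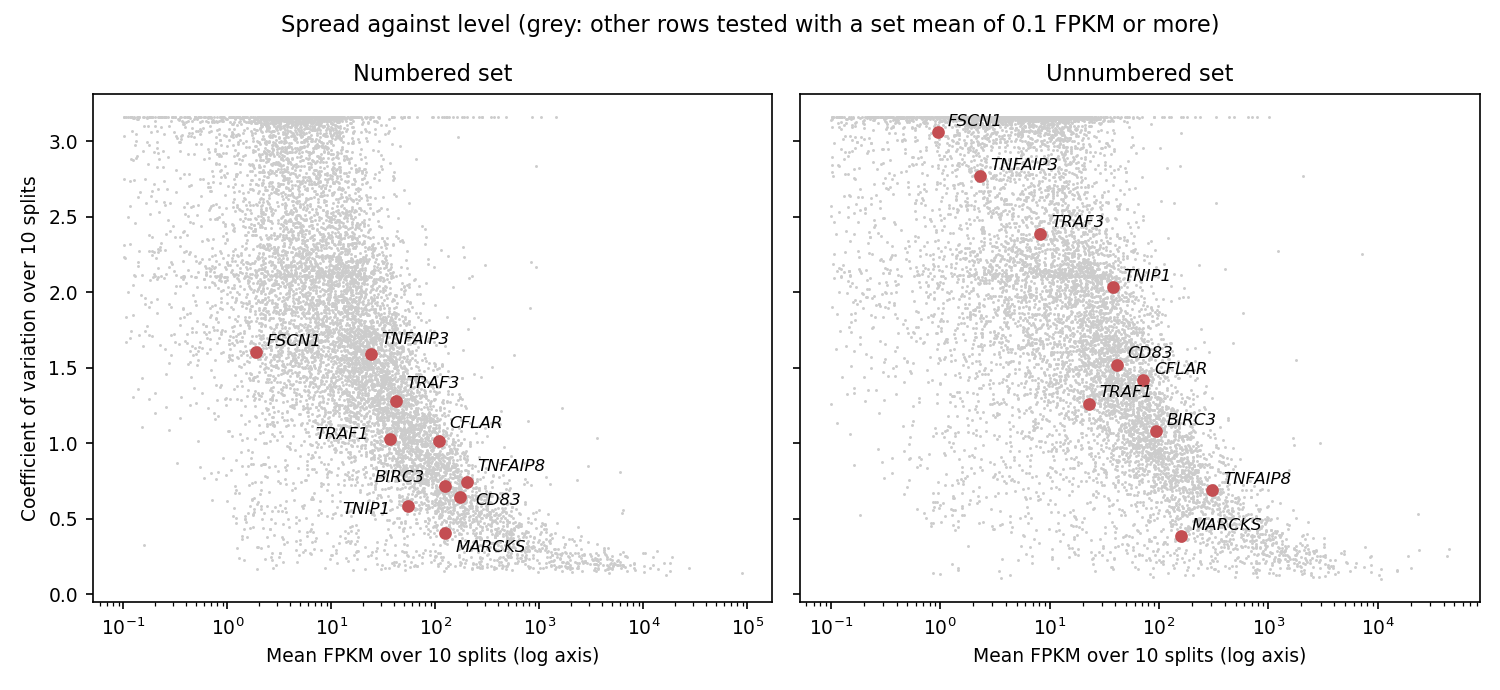
Coefficient of variation over the 10 splits of a set against mean FPKM (log axis) for the 10 genes in red and, in grey, other rows tested with a set mean of 0.1 FPKM or more, with 1 panel per set. MARCKS lies low in both panels, at 0.406 and 0.387, and TNIP1 is at 0.587 in the numbered and 2.03 in the unnumbered panel.

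Levels of the 10 genes were little related from split to split. After each set's mean was subtracted, Pearson's r of log2(FPKM + 1) over the 20 splits had a median of 0.03 over the 45 pairs, with 27 above 0. The ends of the range were TRAF1 with CD83 (0.46) and MARCKS with TNIP1 (-0.39). Without splits 9, 247 and 253, TRAF1 with CD83 was at 0.42 while MARCKS with TNIP1 turned to 0.27, and BIRC3 with MARCKS turned from 0.42 to -0.14. The splits share depth and capture, and these values are a description. By the same measure, among 2284 rows, the genes most like TNFAIP8 were ATP5H (0.87) and PSMC6 (0.80). Those most like MARCKS were SFT2D1 (0.79) and TROVE2 (0.76), and those most like BIRC3 were SARS and NAP1L4 (0.81 each). These are the highest values among 2284 rows, a choice that by itself favours high r. They rest on all 20 splits, among them splits 9, 247 and 253.

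Other genes of the pathway were read from 5 lists, by their counts past the same limma test and their median difference. In the list of 18 adaptors and kinases upstream, 14 were tested and 0 passed, with 2 at an unadjusted p under 0.05, 0 by the rank-sum test, and a median of 0.46. The receptor CD40 itself had a median of 142 FPKM in numbered and 10.1 in unnumbered splits, with values of 1 FPKM or more in 10 and 6 (difference 3.07, adjusted p = 0.164). TANK, a TRAF-binding adaptor, had medians of 109 and 1.08 FPKM (2.50, adjusted p = 0.366), and the kinase JAK3 11.1 and 37.6 (-2.65, adjusted p = 0.0902). Of 11 NF-kB subunits and inhibitors, 7 were tested, 2 were higher in numbered splits and 0 lower (median 1.64). They were NFKBIE, which encodes an IkB that holds NF-kB in the cytoplasm (adjusted p = 0.0461), and NFKBIZ, which encodes a nuclear IkB-like protein (adjusted p = 0.0258). Both were listed at 0 in all 10 unnumbered splits and at 1 FPKM or more in 6 and 7 numbered ones. Both met the filter of mean FPKM 1 only through the numbered set, so their calls say nothing about the list, and 0 of its 4 genes with a mean of 1 or more in each set passed. The count was 1 in 15 of 20 fits that left out 1 split, and 0 without run a. NFKBIA, the main IkB inhibitor, averaged 93.3 and 35.9 FPKM (adjusted p = 0.414).

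Among 12 ubiquitin editors and feedback genes, 10 were tested and 0 passed (median 0.37, 1 at an unadjusted p under 0.05, 0 by the rank-sum test). UBE2N, the ubiquitin-conjugating enzyme that works with TRAFs, averaged 420 ± 224 FPKM (SD, n = 10) in numbered and 921 ± 427 (SD, n = 10) in unnumbered splits. Its difference was -1.27 (adjusted p = 0.148, or 0.0497 after rescaling to TPM and 0.0437 with size factors). Its partner UBE2V1 averaged 374 and 392 FPKM (adjusted p = 0.833), and TNIP2, a relative of TNIP1, was at 1 FPKM or more in 3 numbered and 1 unnumbered split (adjusted p = 0.592). Of 24 other genes induced by LMP1 or CD40, 22 were tested, 8 were higher in numbered splits and 1 lower, with a median of 1.85. The list was partly assembled with these data known, so its count is not independent support. The 8 were TNFAIP2, PLEK, BCL2A1, EBI3, SLAMF1, ICAM1, GADD45B and BCL2L1. GADD45B and BCL2L1 met the filter only through the numbered set, and among the 19 genes with a mean of 1 or more in each set 6 were higher and 1 lower. With runs b, c and d alone 5 of the list were called higher in numbered splits, and 4 with run a alone against the unnumbered splits. PLEK, the protein kinase C substrate pleckstrin, ran from 294 to 696 FPKM in numbered and from 80.4 to 272 in unnumbered splits without overlap (1.72 ± 0.32, SE, adjusted p = 0.000772). TNFAIP2 was at 1 FPKM or more in 10 and 3 splits (5.58 ± 0.94, SE, adjusted p = 0.000244). IRF4, a transcription factor of activated B and plasma cells, was lower in numbered splits (-1.94, adjusted p = 0.0193). The chemokine receptor CCR7 averaged 484 and 1040 FPKM (-1.08, adjusted p = 0.0690, or 0.0119 after rescaling to TPM and 0.0286 with size factors). The chemokine CCL22 averaged 766 and 565 FPKM (0.49, adjusted p = 0.368). Of 17 paralogs, XIAP had a failed estimate in 3 libraries, 11 were tested, and 1 passed: BIRC5, the mitotic protein survivin, averaged 47.6 ± 33.6 FPKM (SD, n = 10) in numbered and 194 ± 84.3 (SD, n = 10) in unnumbered splits (-2.52, adjusted p = 0.0245). TRAF2 reached 1 FPKM in 2 numbered and 0 unnumbered splits (adjusted p = 0.459), and BIRC2, which encodes cIAP1, in 5 and 1 (adjusted p = 0.587). Counting each gene once, 60 of 76 were tested and 12 passed, beside 5.31% of all rows. Of the 47 with a mean of 1 FPKM or more in each set 8 passed, beside 6.53% of the 7361 such rows. Of these calls, 9 of the 12 and 7 of the 8 come from the list of other induced genes. All lists were chosen with earlier results of these data known, so neither pooled count is independent support for the pathway. The list medians stand beside 0.35 for all rows tested.

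**Figure D5:**
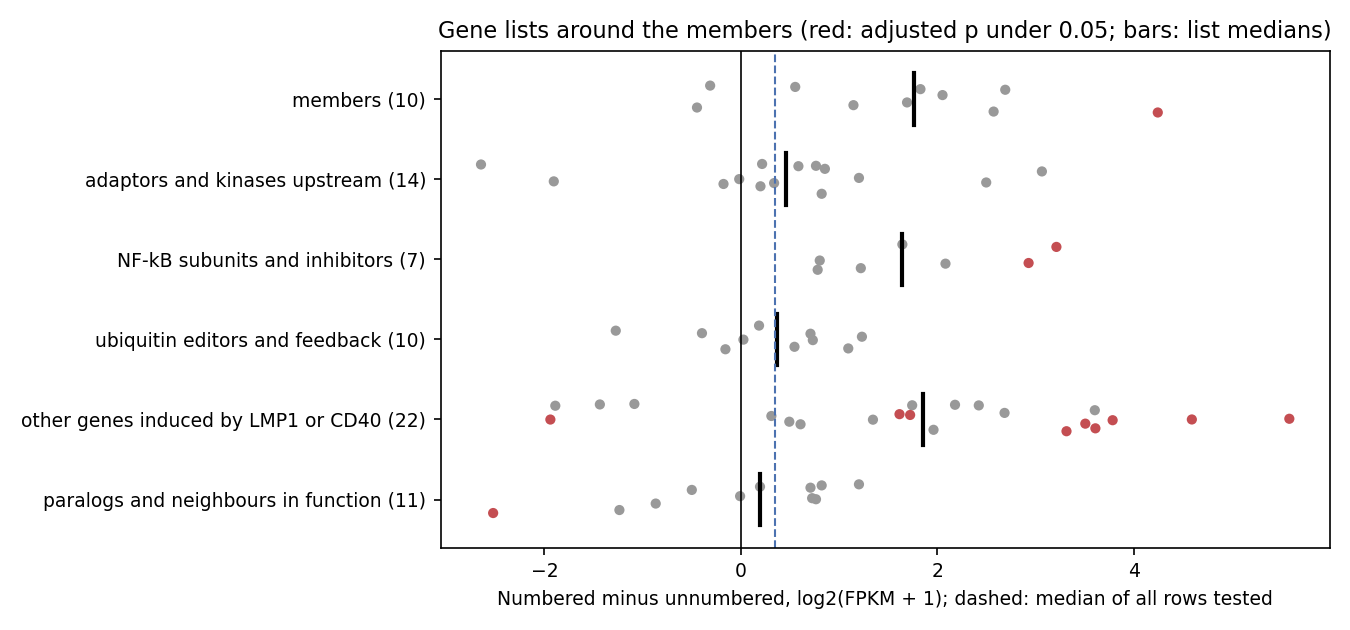
Difference in mean log2(FPKM + 1), numbered minus unnumbered, of each tested gene in the 5 lists and of the 10 genes described, with a point per gene (red where the limma adjusted p was under 0.05), a bar at each list's median and a dashed line at the median of all rows tested. Of the red points to the right, 8 lie in the list of other induced genes, 2 among the NF-kB subunits and inhibitors and 1, CD83, among the genes described.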

How the data were processed

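Values were the FPKM per gene that the authors deposited for 20 pool-split libraries, with Cufflinks confidence bounds and a status. TopHat 1.4.1 and Cufflinks 2.0.2 are named per the submitters' processing notes. No label or file header read here names the genome build or the strand setting. Members, lists and tests were chosen with earlier results of these data known. Rows with too little data in every library or a failed estimate in at least 1 were dropped, leaving 49115 of 55040, of which 10506 had a mean FPKM of 1 or more and were tested with limma 3.58.1 (trended variance, R 4.3.3) on log2(FPKM + 1) with Benjamini-Hochberg adjustment. Fisher's exact test and an exact rank-sum test were run on the same rows, both 2-sided. Depth was estimated from the bounds of mitochondrial genes. FPKM depends on the genes dominating a library, so rescaled values were also tested. An exact 0 need not mean that a transcript was absent. All 200 values of the 10 genes carried the status OK, so none of their zeros was marked as a failed estimate. All 10 genes, and from each list the 2 with the highest mean FPKM and the 2 with the lowest p are named. BCL2A1, EBI3, SLAMF1, ICAM1, GADD45B, BCL2L1 and IRF4 were named after their values were seen. Alternatives were other pseudocounts, filters, scalings, variance models, tests and sets of libraries. The fit was tested on simulated data. Part of the marker results is not reported here.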

Additional observations from a re-analysis of the deposited data

Results flagged for a closer look

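In 6 of the 20 combinations of gene and set, 1 of the 10 splits stood apart by Dixon's gap test at the 95% level, which chance does in about 1 in 20 groups of normally spread values. These values are not normally spread: TNFAIP3 and FSCN1 each had 6 of 10 unnumbered splits at 0. The share of all rows that the same rule flags was not computed, so the count of 6 cannot be read as an excess. TNFAIP3 in numbered split 2 was at 124 FPKM, with the next highest numbered split, split 6, at 41.4. By the confidence bounds, these values rest on about 38.7 and 3361 fragments. TNFAIP3 in unnumbered split 252 was at 20.4 FPKM, with the next at 2.24. TNFAIP8 was also highest in unnumbered split 252, at 804 FPKM against 431 in the next split. FSCN1 in unnumbered split 232 was at 9.18 FPKM, and no other unnumbered split passed 0.231. TRAF3 in the same split was at 63.5 FPKM, with the next at 11.5. TNIP1 in unnumbered split 253 was at 251 FPKM, with the next at 39.7.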

How the results depend on the processing

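The count of the 10 genes past the threshold was 1, and became 2 with a pseudocount of 0.1, without splits 9, 247 and 253, and by the exact rank-sum test. It became 0 with runs b, c and d alone and with run a as a covariate. Over all 10506 rows, calls higher and lower in numbered splits were 449 and 144 with a pseudocount of 0.1. They were 428 and 160 without splits 9, 247 and 253. With runs b, c and d alone they were 330 and 118, and with run a as a covariate 287 and 99. Leaving out 1 split at a time gave 1 to 2 of the 10 genes. Over all rows it gave 384 to 467 higher and 135 to 161 lower. CD83 kept its direction in all settings; its adjusted p was 0.162 with run a alone against the unnumbered splits. TNIP1 passed without splits 9, 247 and 253 (adjusted p = 0.0120), and TNFAIP3 passed with a pseudocount of 0.1 (adjusted p = 0.0494) and with run a alone against the unnumbered splits (adjusted p = 0.0467); the cause was not tested. The 12 genes that passed over the 5 lists became 7 with runs b, c and d alone, and 10 to 13 when 1 split was left out. Over all rows, the rank-sum test called 706 higher and 247 lower against 413 and 145 by limma. No direction of a member reversed. No Fisher call of a member was made at any detection level. No paired analysis was possible because the numbered and unnumbered splits share no replicate number. Low depth limits split 247 most.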
